A study of Homo sapiens with 42 samples.

Results

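LYZ, CHI3L1 and CHIT1 are 3 genes for secreted proteins of myeloid cells: lysozyme, an inactive member of the chitinase family, and an active chitinase. They were taken as the rows of the deposited table that carry these gene names, which gives 3 of 60240 genes. They were chosen with the decitabine result of the same libraries known, so their decitabine differences are given as a description, without a test. Total RNA was sequenced from established human lines of acute myeloid leukaemia after decitabine, a nucleoside drug that depletes DNA methyltransferases by trapping them on DNA, or after the DMSO control. The 5 lines are SKM-1, OCI-AML3, KG-1 and the sister lines MOLM-13 and MOLM-14, each labelled wild type, with 3 DMSO and 3 decitabine libraries per line, 30 in all. The decitabine arm received a 100 nM dose on each of days 0, 1 and 2, and RNA was taken at 72 hours in both arms. Each line descends from a single patient, and MOLM-13 and MOLM-14 from the same one, so a line is one genetic background and the libraries of a line are repeats of it.

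Lysozyme cleaves the peptidoglycan of bacterial cell walls and is made in large amounts by monocytes, macrophages and granule-bearing neutrophil precursors, which has made it a classical serum and urine marker of monocytic leukaemia. Chitinases cleave chitin, the polysaccharide of fungal walls and insect cuticles. CHIT1 encodes chitotriosidase, the chitinase that activated and lipid-laden macrophages release and that is measured in Gaucher disease. CHI3L1 encodes a chitinase-like glycoprotein that still binds chitin but does not cleave it, and that is secreted by macrophages, neutrophils and several tumour cells.

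LYZ (ENSG00000090382.7) lies on chromosome 12 at 69348341 to 69354234 on the plus strand of GRCh38. CHI3L1 (ENSG00000133048.13, chromosome 1, 203178931 to 203186749) and CHIT1 (ENSG00000133063.16, chromosome 1, 203212827 to 203273641) are neighbours on the minus strand, with 26.1 kb between the gene bodies. The promoter letters below are shown because DNA methyltransferases act at CG sites, and because CHI3L1 and CHIT1 share a family and a chromosome band but not a level. Both run 5′ to 3′ on the minus strand from 250 bases before the RefSeq start (GRCh38.p14), with CG dinucleotides in capitals. The CHI3L1 stretch, chr1:203186750-203186954, stops at the first base of the annotated first exon and so leaves out the last 45 bases of the window. The CHIT1 stretch is chr1:203229674-203229923 and lies in an intron of the longer annotated CHIT1 transcripts. Of the 3 genes, these 2 matched the RefSeq promoter table.
CHI3L1: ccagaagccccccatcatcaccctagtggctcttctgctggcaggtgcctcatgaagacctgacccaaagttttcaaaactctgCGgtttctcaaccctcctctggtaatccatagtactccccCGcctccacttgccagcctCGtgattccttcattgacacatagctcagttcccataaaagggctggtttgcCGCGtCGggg
CHIT1: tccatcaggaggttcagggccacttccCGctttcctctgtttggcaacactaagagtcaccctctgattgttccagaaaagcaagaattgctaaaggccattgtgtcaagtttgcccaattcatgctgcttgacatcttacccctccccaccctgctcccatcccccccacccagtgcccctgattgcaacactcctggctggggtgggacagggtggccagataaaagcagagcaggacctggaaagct

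The CHI3L1 window holds 6 CG sites and the CHIT1 window holds 1. Of 35116 promoter windows of 250 bases, 41.1% hold as few CG sites as CHI3L1 or fewer, and 14.7% as few as CHIT1 or fewer, against a median of 11. The 2 windows have nearly the same base composition, 54% and 54.4% G plus C. Both strands were searched for 3 motifs that may overlap each other: TATAAA, the TATA box; GAGGAA, the core bound by the myeloid factor PU.1; and TTNNGNAA, a loose form of the site of C/EBP factors. CHI3L1 held TATAAA 1 time, starting 27 bases before the start in the stretch not shown, and CHIT1 held none (10.7% of all promoters hold it). GAGGAA had 0 matches in CHI3L1 and 1 in CHIT1 (23.6% of promoters). TTNNGNAA had 2 matches in CHI3L1 and 4 in CHIT1 (33.2% of promoters). These are letter matches only, and no methylation or factor binding was measured in these libraries.

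Values are the deposited normalised counts, and their differences are on the log2(normalised count + 1) scale with the standard error (SE) of a limma fit whose spread is pooled over all 30 libraries. Estimated depth, in units of 1e+06 reads in genes, ranged from 1.97 to 75. The deepest libraries were those of MOLM-13 (42.9 to 75) and SKM-1 (50.9 to 69.3), and the second replicates of OCI-AML3, KG-1 and MOLM-14 in both arms were the shallowest. As a check of the labelled cell type, the myeloid marker CD33 lay between 570 and 2346 in every library. The monocyte marker CD14 did not exceed 5.36 anywhere. It was the only 1 of 12 monocyte and macrophage markers below 10 in every library, and AIF1, another of them, lay between 549 and 5380. In bulk RNA, more cells with a transcript and more transcript per cell cannot be told apart.

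LYZ was about 2 to 3 times as high after decitabine in 4 lines, and no higher in SKM-1, the line in which it was already most abundant. In KG-1 the DMSO libraries read 566, 540 and 725 and the decitabine libraries 1424, 1189 and 1371, a ratio of means of 2.18. In MOLM-13 they read 7312, 6760 and 7183 against 14572, 14714 and 15066, a ratio of 2.09. Every decitabine library of these lines stood above every DMSO library. In MOLM-14, LYZ went from 3911, 3564 and 4009 to 8762, 7913 and 8753, a ratio of 2.21. OCI-AML3 showed the largest ratio of the 5 lines, 3.03, from 4383, 3986 and 3992 to 10896, 13092 and 13473. The groups were again fully separated.

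In SKM-1, LYZ read 10941, 10731 and 10712.5 with DMSO and 10527, 10449 and 10090 with decitabine, a ratio of 0.959. All decitabine libraries lay below all DMSO libraries, but by little: the log2 difference was -0.060 with an SE of 0.094. The differences in the other lines were 1.13 (KG-1), 1.06 (MOLM-13), 1.15 (MOLM-14) and 1.59 (OCI-AML3), each with the same SE, and their mean over all 5 lines was 0.97 (SE 0.042). The sign in SKM-1 depended on scaling: after quantile normalization the difference was 0.084.

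Separation of this kind is common among the 22168 genes tested and is no evidence for genes chosen on it. All decitabine libraries stood above all DMSO libraries for 10.2% of genes in KG-1, 22.8% in MOLM-13, 11.2% in MOLM-14, 10.1% in OCI-AML3 and 29.2% in SKM-1. They stood below for 6.44%, 17%, 9.5%, 7.42% and 18.9% in the same order. The pattern of LYZ and CHI3L1, above DMSO in the 4 other lines and below it in SKM-1, was found for 10 genes (0.0451% of those tested), out of 144 (0.65%) that stood above DMSO in those 4 lines. Ranked by the size of the difference from the highest, LYZ was at place 1884 in KG-1, 913 in MOLM-13, 2273 in MOLM-14, 1035 in OCI-AML3 and 14385 in SKM-1.

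**Figure D1:**
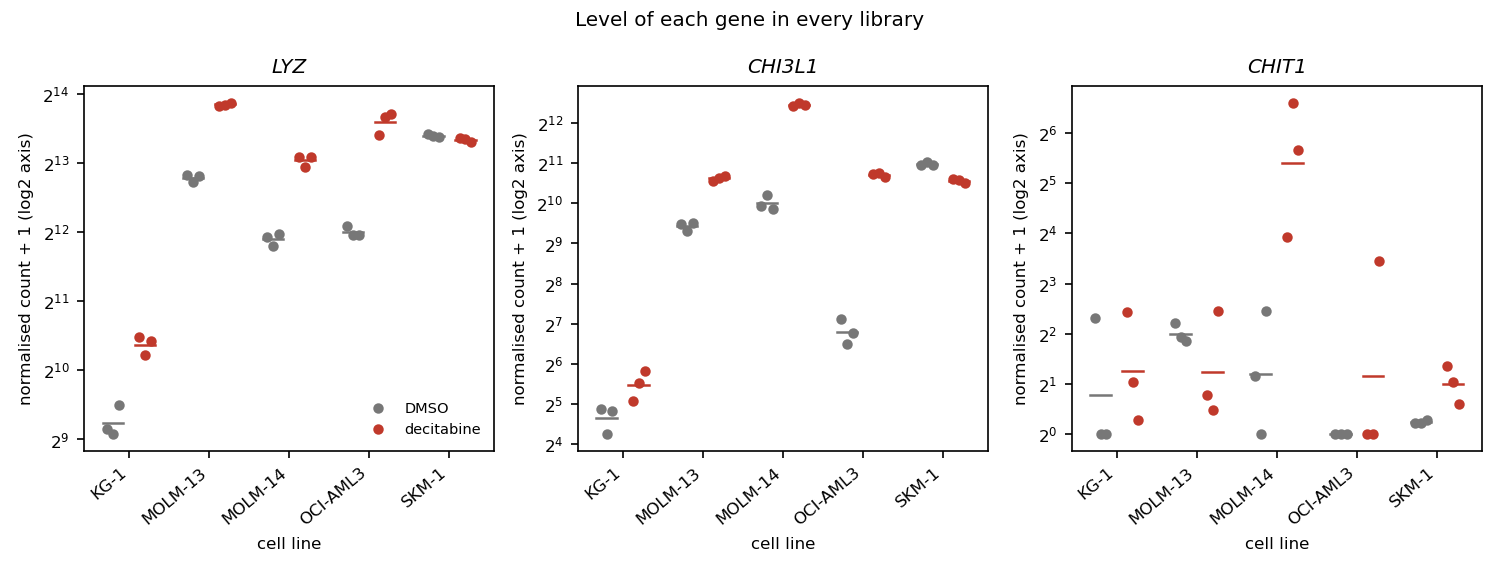
Normalised count plus 1 (log2 axis) of LYZ, CHI3L1 and CHIT1 in each of the 30 libraries, grouped by cell line; points are libraries, lines are group means of the log2 values. LYZ and CHI3L1 separate by arm in every line, upwards in 4 and downwards in SKM-1, while CHIT1 exceeds 10 normalised counts only with decitabine in MOLM-14.

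CHI3L1 differed more between lines than LYZ, both before and after decitabine. In OCI-AML3 it read 138, 89.0 and 107 with DMSO and 1704, 1719 and 1615 with decitabine, a ratio of 15.1. In MOLM-14 it read 977, 1177 and 936 against 5534, 5844 and 5583, a ratio of 5.49. MOLM-13, the sister line of MOLM-14, read 714, 637 and 726 against 1495, 1586 and 1645, a ratio of 2.28. No decitabine library overlapped a DMSO library in any of the 3 lines.

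KG-1 had the least CHI3L1, with 28.3, 18.03 and 27.4 in DMSO and 32.8, 44.7 and 55.9 in decitabine, a ratio of 1.81. These low values rest on few reads: the shallow DMSO library held an estimated 2.72 reads and the shallow decitabine library 10.4. Without the 6 shallow libraries the log2 difference in KG-1 was 0.605, against 0.82 with them. SKM-1 had the most in DMSO, 1994, 2101 and 1994, and its decitabine libraries read 1563, 1525 and 1448, a ratio of 0.745. The groups did not overlap in KG-1 or in SKM-1, but in SKM-1 the decitabine libraries were the lower ones. The log2 differences were 0.82 in KG-1, 1.19 in MOLM-13, 2.46 in MOLM-14, 3.92 in OCI-AML3 and -0.42 in SKM-1 (SE 0.17 each), with a mean of 1.59 (SE 0.075). By size from the highest, CHI3L1 was at place 43 of 22168 in OCI-AML3, 334 in MOLM-14, 650 in MOLM-13, 2770 in KG-1 and 20044 in SKM-1.

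**Figure D2:**
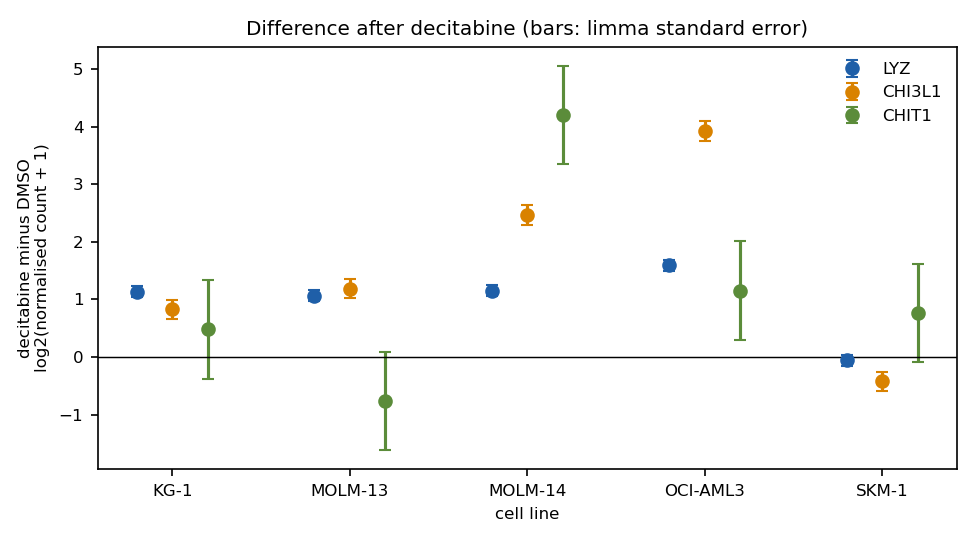
Decitabine minus DMSO on the log2(normalised count + 1) scale in each line for LYZ, CHI3L1 and CHIT1; bars are limma standard errors with the spread pooled over the 30 libraries. LYZ lies between 1.06 and 1.59 in 4 lines, CHI3L1 spreads from 0.82 to 3.92 in the same lines, and both lie below 0 in SKM-1.

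CHIT1 was below 10 normalised counts except in MOLM-14 with decitabine. Its DMSO values were 3.96, 0 and 0 in KG-1, 3.63, 2.84 and 2.63 in MOLM-13, 1.24, 0 and 4.46 in MOLM-14, 0 in every OCI-AML3 library, and 0.157, 0.160 and 0.209 in SKM-1. A value of 3 reads in these 30 libraries corresponds to 0.838 to 30.8 normalised counts, depending on depth, so most of these values were at or below it. The MOLM-13 values were above it, from an estimated 9.16 to 9.41 reads. In MOLM-14 the decitabine libraries read 14.2, 96.7 and 49.8, above all its DMSO libraries, from an estimated 11.1, 9.41 and 41.6 reads. The highest of these values is that of the shallow library. The log2 difference was 4.20 (SE 0.85), and 2.99 when the 6 shallow libraries were left out.

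With decitabine, CHIT1 read 4.37, 1.06 and 0.210 in KG-1, 0.721, 0.395 and 4.50 in MOLM-13, and 0, 0 and 9.98 in OCI-AML3. These groups overlapped their DMSO groups. In SKM-1 the decitabine values of 1.57, 1.05 and 0.514 stood above the DMSO values, but came from at most 4.19 estimated reads. No ratio is given for OCI-AML3 and SKM-1, where 1 or both arms were at the floor. CHIT1 reached the filter of at least 10 in at least 3 libraries through MOLM-14 with decitabine alone, whereas LYZ and CHI3L1 did not depend on a single group.

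Untreated levels are another contrast than the one the genes were chosen on and were tested. LYZ differed between lines in DMSO, over a range of 4.15 on the log2 scale (limma F-test, adjusted p = 1.21e-20). So did CHI3L1, over 6.34 (limma F-test, adjusted p = 4.71e-20). CHIT1 was not called (range 2.00, limma F-test, adjusted p = 0.193), but its DMSO values did not exceed 4.46 normalised counts. It passed the filter through MOLM-14 with decitabine alone, so this test cannot decide whether its untreated level differs between lines. Differences between lines are the rule here, as 77.9% of all genes tested were called in the same F-test. For CHIT1 the adjusted p of this F-test was 0.0283 after quantile normalization and 0.00828 with library weights. Those calls rest on the same low values and decide nothing about its untreated level.

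For LYZ the order in DMSO was SKM-1 (10795 ± 127, SD, n = 3), MOLM-13 (7085 ± 288), OCI-AML3 (4120 ± 227), MOLM-14 (3828 ± 234) and KG-1 (610 ± 100.0). SKM-1 exceeded MOLM-13 by 0.61 (limma, adjusted p = 8.02e-06; 40.6% of genes called in this pair). MOLM-13 exceeded OCI-AML3 by 0.78 (limma, adjusted p = 1.79e-07; 47.9%). OCI-AML3 and MOLM-14 were not told apart, with a difference of 0.11 and an SE of 0.094 (limma, adjusted p = 0.408; 38.3%). MOLM-14 exceeded KG-1 by 2.66 (limma, adjusted p = 2.77e-17; 44.7%). From lowest to highest line this is a factor of 17.7.

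For CHI3L1 the order was SKM-1 (2030 ± 62.1), MOLM-14 (1030 ± 129), MOLM-13 (692 ± 48.3), OCI-AML3 (112 ± 25.0) and KG-1 (24.6 ± 5.69), a factor of 82.6 from lowest to highest. The sister lines MOLM-13 and MOLM-14 thus stood in opposite order for the 2 genes. They lie in different blocks of samples, and the part of the block in their order was not tested. SKM-1 exceeded MOLM-14 by 0.99 (limma, adjusted p = 2.31e-05; 50.4% of genes called). MOLM-14 exceeded MOLM-13 by 0.57 (limma, adjusted p = 0.00936; 36.2%), a call that was lost without the second DMSO replicate of MOLM-14 (0.47, adjusted p = 0.0535). MOLM-13 exceeded OCI-AML3 by 2.64 (limma, adjusted p = 1.68e-12; 47.9%), and OCI-AML3 exceeded KG-1 by 2.14 (limma, adjusted p = 7.88e-11; 43.4%). In both genes SKM-1, one of the 2 most deeply read lines, was highest. The part of depth or of the block of samples in this was not tested. Leaving out the 6 shallow libraries left the LYZ range at 4.07 and the CHI3L1 range at 6.14.

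After decitabine the lines were ordered differently. LYZ was then highest in MOLM-13 (14784 ± 254), followed by OCI-AML3 (12487 ± 1391), SKM-1 (10355 ± 233), MOLM-14 (8476 ± 487) and KG-1 (1328 ± 123), a factor of 11.1. CHI3L1 was highest in MOLM-14 (5653 ± 167), followed by OCI-AML3 (1679 ± 55.8), MOLM-13 (1576 ± 75.5), SKM-1 (1512 ± 58.2) and KG-1 (44.5 ± 11.5), a factor of 127. SKM-1 thus moved from the first place to the third for LYZ and the fourth for CHI3L1.

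Levels of different genes were compared per kilobase of exon. The length used was that of all annotated exons of a gene merged, 1764 bases for LYZ and 3408 for CHI3L1. A gene whose transcripts in these cells are shorter than its merged exons reads too low. The places and shares below depend on these lengths, and other lengths were not tested. LYZ was among the most abundant protein-coding transcripts, at place 62 of 19849 in SKM-1, 115 in MOLM-13, 159 in OCI-AML3, 219 in MOLM-14 and 2092 in KG-1 with DMSO. With decitabine it was at place 57, 51, 42, 82 and 756 in the same order. CHI3L1 was at place 9144 with DMSO and 1304 with decitabine in OCI-AML3. It went from 2440 to 284 in MOLM-14, but from 3737 to 1471 in its sister line. In SKM-1 it went from 1142 to 1506, and in KG-1 it stayed far down, from 11239 to 10737.

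Per kilobase of merged exons, CHI3L1 was 14.0% ± 2.68 of LYZ in MOLM-14 with DMSO and 34.6% ± 3.11 with decitabine. In OCI-AML3 the share went from 1.39% ± 0.240 to 7.03% ± 0.965. The arms did not overlap in either line. The share was 5.05% ± 0.176 and 5.51% ± 0.180 in MOLM-13, again without overlap, 2.09% ± 0.445 and 1.75% ± 0.489 in KG-1, and 9.73% ± 0.362 and 7.56% ± 0.127 in SKM-1. In KG-1 the arms overlapped, and in SKM-1 decitabine libraries were the lower ones.

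**Figure D3:**
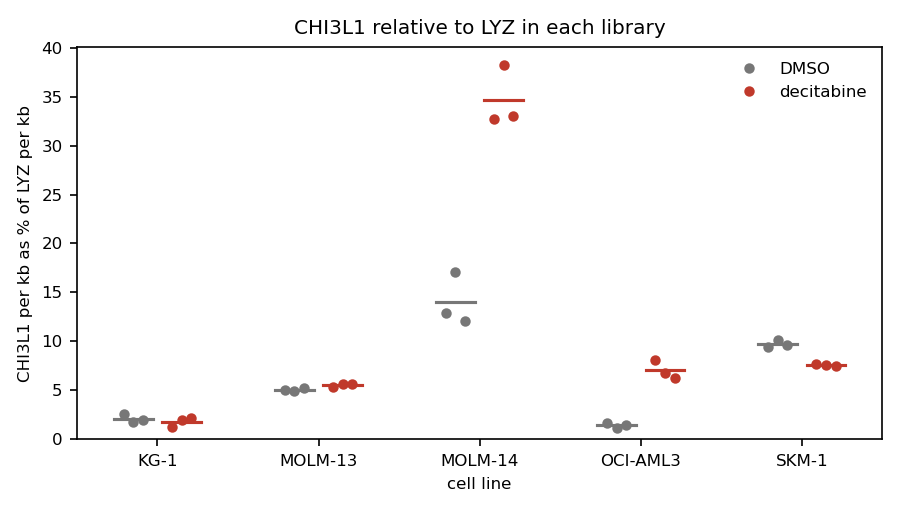
CHI3L1 per kilobase of merged annotated exons as a percentage of LYZ per kilobase in each library, by line. Points are libraries and lines are group means. The share is largest in MOLM-14, at 14.0% with DMSO and 34.6% with decitabine, and lowest in OCI-AML3 with DMSO and KG-1 in both arms.

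The other genes of the lysozyme superfamily were hardly measured. LYZL1, LYZL2, LYZL4 and the milk protein gene LALBA were 0 in every library. The sperm and testis genes LYZL6, SPACA3 and SPACA5 stayed at or below 1.17, and LYG2 at or below 4.99. LYG1, the goose-type lysozyme gene, was the only one of these 9 to pass the filter, with 15.2 as its highest value and a panel mean, the mean of the 5 line differences, of 0.45 (limma, adjusted p = 0.265). So 0 of these genes were called in limma, and 0 passed at an unadjusted p under 0.05. Among all genes tested, 12% were called higher and 7.52% lower on the panel mean, and the median was 0.063.

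Of the 5 other chitinase family genes, 4 passed the filter, 0 were called higher and 1 lower on the panel mean (12% and 7.52% of all genes), with a median of 0.25. At an unadjusted p under 0.05 in limma, 2 would be higher and 1 lower. The higher count became 2 without MOLM-14 or without the shallow libraries, and the lower count 0 without OCI-AML3, KG-1 or SKM-1. CHID1, which encodes a stabilin-interacting chitinase-like protein, fell by 0.23 (limma, adjusted p = 0.0204), and of single lines by 0.71 in OCI-AML3 (adjusted p = 0.00628), from 304 to 370 with DMSO to 195 to 212 with decitabine. CTBS, the lysosomal enzyme that trims chitobiose from glycoproteins, gave 0.17 (limma, adjusted p = 0.0518). CHI3L2, another chitinase-like gene without enzymatic activity, gave 1.06 (limma, adjusted p = 0.104) and did not exceed 42.7. In MOLM-14 CHI3L2 read 5.28 to 42.7 with DMSO and 0 to 9.32 with decitabine, overlapping ranges, while CHI3L1 stood higher there with decitabine. OVGP1, the oviduct glycoprotein gene, gave 0.33 (limma, adjusted p = 0.515), and CHIA, the acidic chitinase gene of stomach and lung, stayed at or below 2.51.

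Of 8 genes for receptors and binding partners of the CHI3L1 protein, 7 passed the filter and 3 were called higher (12% of all genes), with a median of 0.29. LGALS3, encoding the lectin galectin-3, rose by 1.48 on the panel mean (limma, adjusted p = 4.53e-06) and was called in OCI-AML3, MOLM-14 and KG-1. PTGDR2, a prostaglandin receptor gene, rose by 1.19 (adjusted p = 0.00862, limma), with a call in SKM-1 alone. IL13RA1, the partner chain of the IL-13 receptor, rose by 0.41 (adjusted p = 0.00135, limma) and was called in KG-1 and MOLM-14. IL13RA2, the receptor chain most often named for CHI3L1, stayed at or below 1.73. CD44, the hyaluronan receptor, was abundant at 1771 to 11252 and gave -0.096 (limma, adjusted p = 0.174). TMEM219 gave 0.20, AGER 0.18 and SDC1 0.29, none of them called.

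LYZ is one of many antimicrobial proteins of myeloid cells. Of 22 others, 16 passed the filter, 14 were called higher and 0 lower on the panel mean (12% and 7.52% of all genes), with a median of 0.89 against 0.063 over all genes. S100A8 and S100A9, the subunits of calprotectin, rose by 2.05 and 1.72 (limma, adjusted p = 2.7e-07 and 2.69e-11). GNLY, encoding granulysin, rose by 1.62 (limma, adjusted p = 4.67e-05), with a call in SKM-1 alone, and BPI, encoding a protein that binds endotoxin, rose by 1.41 (limma, adjusted p = 4.01e-05), with a call in KG-1 alone.

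In SKM-1, where LYZ and CHI3L1 were no higher, 5 of these genes were called higher (S100A8, S100A9, S100A12, CAMP and GNLY) and 2 lower. The lower ones were the granule protease genes PRTN3 (-1.92, limma, adjusted p = 1.25e-06) and CTSG (-0.82, limma, adjusted p = 0.000622). The same 2 genes were called higher in KG-1 and OCI-AML3, by 1.27 and 0.97 for PRTN3 and by 1.37 and 0.61 for CTSG, and PRTN3 also in MOLM-14 (1.74). Of all genes tested in SKM-1, 5.7% were called higher and 3.32% lower. Antimicrobial genes called higher numbered 9 of the 16 in KG-1 (3.12% of all genes higher and 0.663% lower), 6 in MOLM-14 (6.26% and 4.77%), 5 in OCI-AML3 (3.74% and 1.64%) and 2 in MOLM-13 (1.45% and 1.67%).

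Lysozyme and the chitinases act on sugar chains, as do the glycosidases of lysosomes. Of 18 genes for lysosomal glycosidases and related hydrolases, all passed the filter, 10 were called higher and 0 lower (12% and 7.52% of all genes), with a median of 0.22. FUCA1, the fucosidase gene, rose most, by 1.14 (limma, adjusted p = 1.59e-10), and was called in every line except KG-1. ARSA, an arylsulfatase gene, rose by 0.51, GLA, the galactosidase gene of Fabry disease, by 0.45, and NEU1, the sialidase gene, by 0.38 (limma, adjusted p = 0.00578, 0.00781 and 1.73e-05). The count fell to 5 without SKM-1 and to 6 without MOLM-13 or without MOLM-14.

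Of 16 genes for cathepsins and other lysosome proteins, 12 were called higher and 1 lower, CTSC (12% and 7.52% of all genes), with a median of 0.47. CD68, a macrophage lysosome glycoprotein gene, rose by 1.39, the cathepsin genes CTSH and CTSZ by 0.81 and 0.75, and GRN, the progranulin gene, by 0.63 (limma, adjusted p = 2.05e-09, 0.0117, 3.32e-09 and 2.99e-11). GRN was called higher in each line other than SKM-1, where it gave 0.21 (limma, adjusted p = 0.188). CTSC, the cathepsin that activates granule proteases, fell by 0.18 (limma, adjusted p = 0.0396), a call that was lost without MOLM-13, without SKM-1, without the shallow libraries or without any 1 of 14 single libraries. Over all lists, CTSC and CHID1 alone were lower on the panel mean at an unadjusted p under 0.05 in limma.

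CHIT1 is best known from lipid-laden and alternatively activated macrophages. Of 18 genes of such macrophages, 14 passed the filter, 7 were called higher and 0 lower on the panel mean (12% and 7.52% of all genes), with a median of 0.64. MMP9 and MRC1, the gelatinase and mannose receptor genes, each rose by 1.66, and CD9 and GPNMB each by 1.11 (limma, adjusted p = 0.00055, 4.99e-07, 0.00132 and 0.0196). Of single lines, MMP9 was called in OCI-AML3 and SKM-1, MRC1 in KG-1 and SKM-1, and CD9 and GPNMB in none. In MOLM-14, the line with CHIT1, the genes called higher were TREM2 (3.70, limma, adjusted p = 2.11e-05), a lipid receptor gene, and CD36 (1.62, adjusted p = 4.66e-05), a scavenger receptor gene, while PLIN2 of lipid droplets was called lower (-0.47, adjusted p = 0.0358). CD36 and PLIN2 were also called higher in KG-1 (1.15 and 1.48) and SKM-1 (1.40 and 0.53). Of the 14 genes, 4 were called higher in SKM-1 (5.7% of all genes) and 3 in KG-1 (3.12%). The count was 2 in MOLM-14 (6.26%), 1 in OCI-AML3 (3.74%) and 0 in MOLM-13 (1.45%). FABP4, CCL18 and MMP12 stayed below 1 in all libraries. Without SKM-1 the panel count was 4.

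Of 18 transcription factor genes of myeloid and inflammatory programmes, 17 passed, 6 were called higher and 0 lower (12% and 7.52% of all genes), with a median of 0.11. CEBPE, a factor of late granulocyte maturation, rose by 2.31 (limma, adjusted p = 6.2e-07). NFKB2 and RELB, of the non-canonical NF-kB pathway, rose by 0.76 and 0.67 (limma, adjusted p = 2.12e-06 and 4.29e-05). SPI1, which encodes PU.1, gave 0.086 (limma, adjusted p = 0.567), and CEBPA 0.11, IRF8 0.013 and STAT3 -0.022, none of them called.

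**Figure D4:**
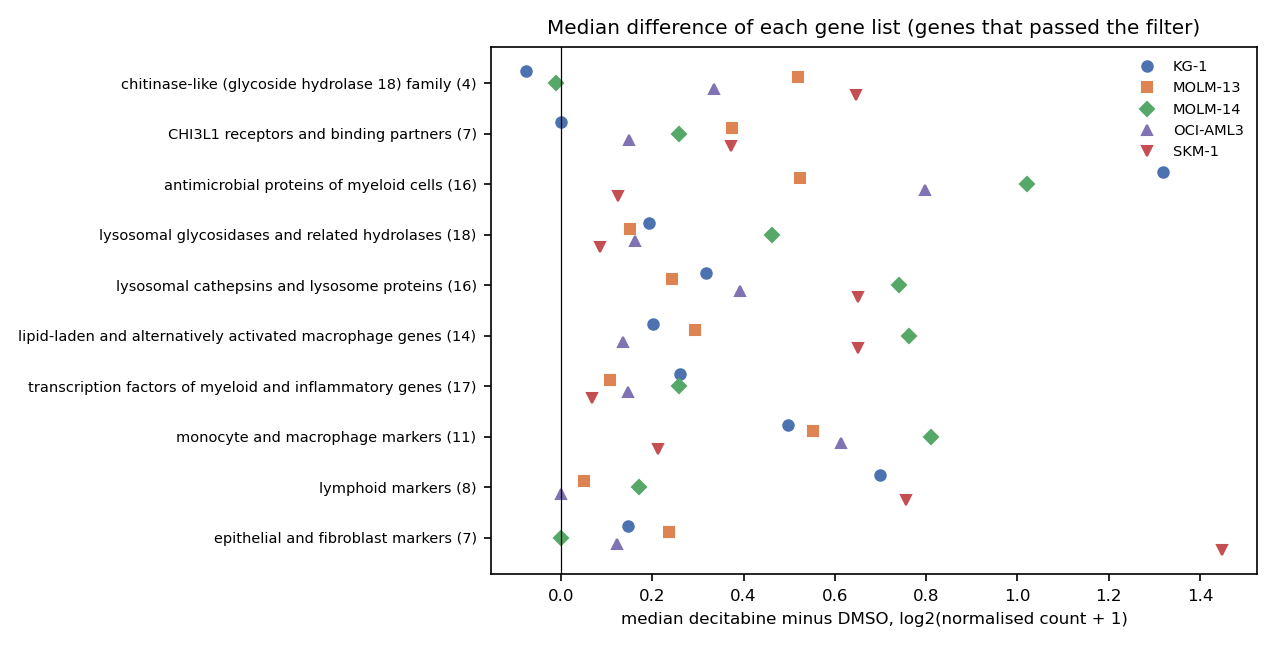
Median decitabine minus DMSO, on the log2(normalised count + 1) scale, of each gene list with more than 3 genes past the filter, by line; the number of genes is in brackets and LYZ, CHI3L1 and CHIT1 are left out. The antimicrobial list has its highest median in KG-1, 1.32, and its lowest in SKM-1, 0.13.

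Markers of cell types moved with decitabine as well. Of 12 monocyte and macrophage markers, 11 passed the filter and 7 were called higher on the panel mean (12% of all genes), among them TYROBP (1.55), MNDA (1.16), VCAN (1.11) and FCER1G (0.83), with limma adjusted p-values from 2.99e-11 to 0.0247. The summed level of the 12 was higher with decitabine, without overlap, in MOLM-13 (4514 to 4883 with DMSO, 6435 to 6667 with decitabine), MOLM-14 (3624 to 3850, then 6017 to 6176), OCI-AML3 (10654 to 11261, then 15466 to 19005) and SKM-1 (15262 to 16879, then 21535 to 21781). In KG-1 the sums overlapped (5527 to 6583 and 5805 to 6585), a measure set mostly by the most abundant markers. By gene, 4 of the 11 were called higher in KG-1 and 0 lower (3.12% and 0.663% of all genes), with a median of 0.50. In SKM-1, 2 of the 11 were called higher, ITGAM and TYROBP, and 1 lower (5.7% and 3.32% of all genes). The lower one was FCGR1A (-0.52, limma, adjusted p = 0.0249). The median in SKM-1 was 0.21, the lowest of the lines. It was 0.55 in MOLM-13, 0.81 in MOLM-14 and 0.61 in OCI-AML3. The part of these markers in the LYZ and CHI3L1 values was not tested.

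Most calls among markers of other lineages were made in SKM-1. Of 8 lymphoid markers 4 were called higher, of 3 erythroid and megakaryocyte markers past the filter 2 (of 8 listed), and of 7 epithelial and fibroblast markers past the filter 3 (of 10 listed). None was called lower on the panel mean. Over all genes, 12% were called higher and 7.52% lower on the panel mean. By line, SKM-1 had 3, 2 and 3 such calls, KG-1 had CD2 and KRT8, OCI-AML3 had KRT18, and COL1A2 was called lower in MOLM-14. The share of all genes called higher was 5.7% in SKM-1, 3.12% in KG-1 and 3.74% in OCI-AML3, and 4.77% were called lower in MOLM-14. On the panel mean, 0 lymphoid and 0 erythroid and megakaryocyte markers were called without SKM-1, and 2 lymphoid markers without its second decitabine replicate. The epithelial sum went from 528 to 586 with DMSO to 1328 to 1394 with decitabine in SKM-1, and the lymphoid sum from 60.2 to 78.0 to 153 to 160. The leading genes were the keratins KRT8 (panel mean 3.49) and KRT18 (1.86), and CD3D (1.17) and CD3E (1.05), with limma adjusted p-values of 6.72e-09, 1.37e-05, 0.000577 and 0.00125. The erythroid and megakaryocyte genes called were ITGA2B (panel mean 0.92) and GP9 (1.14), with limma adjusted p-values of 0.000147 and 0.00494. Of single lines, both were called in SKM-1 alone (2.99 and 3.72). In KG-1 the sum of this list was 1048 to 1205 with DMSO and 1901 to 2571 with decitabine. In SKM-1 it was 24.3 to 32.4 and 176 to 266, and elsewhere at most 39.5. The haemoglobin genes HBB, HBA1 and HBA2 stayed at or below 7.42 and PF4 was 0 in all libraries. The part of these markers in the SKM-1 values of LYZ and CHI3L1 was not tested.

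Genes next to the 3 genes did not share 1 direction. Within 250 kb lie 15 other protein-coding genes, 4 around LYZ and 11 around CHI3L1 and CHIT1. Of these, 12 passed the filter, 2 were called higher and 4 lower on the panel mean (12% and 7.52% of all genes), with a median of 0.15. All calls around LYZ were lower: CCT2 of the TRiC chaperonin by -0.37, YEATS4 by -0.32 and the cleavage factor gene CPSF6 by -0.20 (limma, adjusted p = 4.76e-06, 0.00117 and 0.00154), with FRS2 at 0.10 not called. YEATS4 starts 11.4 kb downstream of the LYZ start.

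Around CHI3L1, MYBPH starts 10.9 kb downstream of the CHI3L1 start on the same strand and encodes a myosin-binding protein. Its level followed another order of lines than CHI3L1: 8170 ± 389 in OCI-AML3 with DMSO, against 593 ± 7.28 in SKM-1 and at most 339 in MOLM-13, MOLM-14 and KG-1. In MOLM-14 MYBPH rose by 1.39 (limma, adjusted p = 1.82e-05), from 169 to 322 up to 504 to 626. In SKM-1 it fell by 0.73 (limma, adjusted p = 0.0122), from 587 to 601 down to 334 to 372. So MYBPH moved the way CHI3L1 did in these lines, but in OCI-AML3, where CHI3L1 had its largest ratio, MYBPH gave 0.21 (limma, adjusted p = 0.599).

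BTG2, a p53-induced antiproliferative gene that starts 31.9 kb upstream of the 5′ end of the GENCODE gene model of CHIT1 (not of the RefSeq start used for the promoter above), rose by 1.06 (limma, adjusted p = 1.91e-11) and most in SKM-1 (1.75). ADORA1, an adenosine receptor gene, was called higher in MOLM-14 alone (2.95, limma, adjusted p = 0.00765), where it read 4.08 to 93.9 with decitabine and 0 to 4.02 with DMSO; the highest value is again that of the shallow library. CYB5R1 rose by 0.31 and TMEM183A fell by 0.24 on the panel mean (limma, adjusted p = 0.0465 and 0.00798). PPFIA4 gave 0.44, PRELP 0.44 and ADIPOR1 -0.049, none of them called. MYOG, FMOD and OPTC did not pass the filter.

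**Figure D5:**
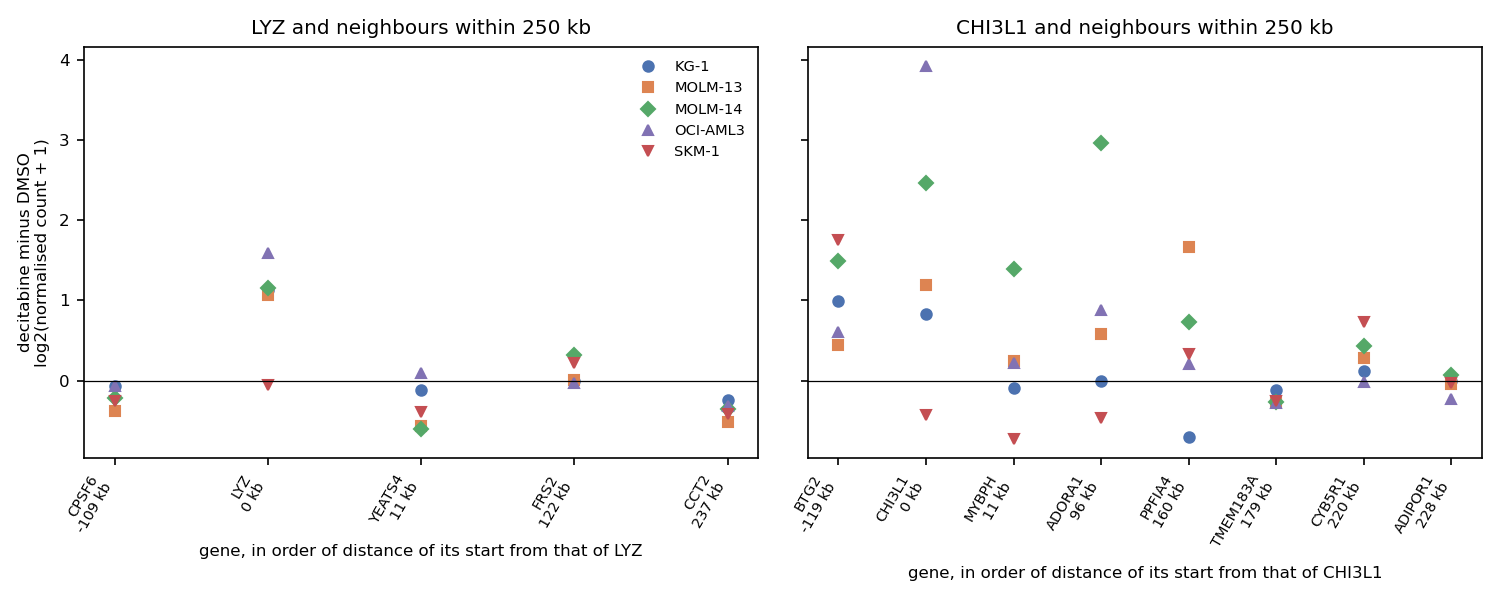
Decitabine minus DMSO, log2(normalised count + 1), per line for LYZ (left) and CHI3L1 (right) and the protein-coding genes within 250 kb that passed the filter, CHIT1 left out; under each name is the distance of its start in kb, negative for upstream. LYZ and CHI3L1 stand above their neighbours in OCI-AML3, and MYBPH next to CHI3L1 is high in MOLM-14 and low in SKM-1.

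An antisense gene, AC020656.1, lies inside the end of LYZ (chromosome 12, 69353493 to 69354225). It read 42.4 to 56.3 with DMSO and 109 to 138 with decitabine in MOLM-13, and stayed at or below 7.30 in KG-1. In OCI-AML3 it read 14.0 to 33.2 with DMSO and 50.2 to 70.3 with decitabine. The arms overlapped in MOLM-14 (20.1 to 26.4 and 22.7 to 44.5) and in SKM-1 (71.2 to 104 and 74.7 to 93.8). Whether counting used the strand is not given in the sources used here, so its reads and those of LYZ cannot be told apart. The pseudogene NPM1P40 inside CHIT1 did not exceed 5.68 in any library and was 0 in MOLM-14 with decitabine.

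Over the 10 group means, LYZ and CHI3L1 followed each other with a Pearson r of 0.89, CHI3L1 and CHIT1 with 0.47, and LYZ and CHIT1 with 0.18. These describe 10 points that share lines and libraries. The protein-coding genes most like LYZ by this measure were SLC2A9, a urate transporter gene (0.96), IL17RA, the IL-17 receptor gene (0.95), and CD151, a tetraspanin gene (0.95). SLC2A9 read 3.83 to 17.5 in KG-1 with DMSO and 430 to 463 in SKM-1. Most like CHI3L1 were MPG, a DNA glycosylase gene (0.96), PHLDA2, an imprinted gene (0.96), and IL4R, the IL-4 receptor gene (0.95). MPG spans a far narrower range than CHI3L1, with group means from 191 to 413.

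Most like CHIT1 were WNT10A, a Wnt ligand gene (0.95), R3HDM4 (0.89) and TIPARP, a gene induced through the aryl hydrocarbon receptor (0.87). WNT10A, like CHIT1, was low outside MOLM-14 with decitabine: it read 12.4 to 23.8 there and at most 4.78 in any other group. Both genes passed the filter through that group alone, so their r rests on 1 group and is a description only. R3HDM4 also had its highest group mean there, 2516 ± 1740.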

How the data were processed

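Total RNA of 30 libraries (5 lines, 2 arms, 3 replicates) was analysed. Since cultures were plated as duplicate or triplicate wells, p-values measure the spread between libraries, which may be technical. Per the labels' protocols, stranded libraries were read single-end at 50 bp. The submitters' processing notes name STAR, featureCounts, Salmon 1.2.1, limma and DESeq2 with hg38, without roles. The deposited values have the unit signal, a normalised count per gene; the authors' name for the table points to estimated counts scaled by DESeq2 size factors. Of the low values of a library, 49.6% to 71.3% were whole multiples of its step (tolerance 0.02), so no count model was run; depth and reads were estimated from the step and cover counting error only. The labels name 42 samples of 7 lines; 12 of them, from THP-1 and OCI-AML2, were not analysed here, and 12 HL-60 columns that match no labelled sample were not used. Columns were tied to samples by titles or, for OCI-AML3, MOLM-14 and KG-1, by the line, arm and replicate in their names; the design text does not name MOLM-14.

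Genes with at least 10 in at least 3 libraries (22168, of them 15127 protein-coding) were fitted with limma 3.58.1 (R 4.3.3) on log2(value + 1) as 10 group means, with 20 residual degrees of freedom, trend and robust. Fold changes on this scale understate low genes. P-values were Benjamini-Hochberg adjusted over all genes tested in each contrast, with calls below 0.05. The fit was tested on simulated data. Coordinates came from GENCODE 29, which matched 58064 genes, and promoters from RefSeq (GRCh38.p14). The genes and lists were chosen with earlier results of these data known. Named were the 3 genes, both families, protein-coding genes within 250 kb, up to 4 called genes of each other list with the largest panel mean, and the 3 genes most alike; other genes were named after their values were seen, and 1 gene that this rule names is not reported here. Alternatives were another pseudocount, scaling, filter, weighting, variance setting and block, and leaving out lines or libraries.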

Additional observations from a re-analysis of the deposited data

Results flagged for a closer look

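LYZ was higher with decitabine in every library of the 4 lines other than SKM-1 and lower in every library of SKM-1, where the log2 difference was -0.060. This was noted because the libraries of SKM-1 lay on the other side of DMSO than those of the other lines. The SKM-1 difference is smaller than the SE of 0.094, but that SE is pooled over all 30 libraries. The SKM-1 libraries alone spread less, with a log2 SD of 0.017 with DMSO and 0.033 with decitabine. After quantile normalization the difference was 0.084, so LYZ is not shown to be lower there. The difference between lines was not tested. CHI3L1 showed the same split, with a log2 difference of -0.42 in SKM-1, and there too the difference between lines was not tested.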

How the results depend on the processing

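Apart from runs without 1 library, 497 values stayed within 1 SD (differences of the 3 genes), on their side of the threshold (DMSO levels) or within 1.5 times (counts of genes), 39 did not, 2 crossed the threshold and 1 changed sign. The sign change was LYZ in SKM-1, 0.084 after quantile normalization. CHIT1 in DMSO was called with library weights (1.98, limma, adjusted p = 0.00828) and after quantile normalization (2.19, adjusted p = 0.0283). Both calls rest on DMSO values of at most 4.46 normalised counts and decide nothing about untreated CHIT1. With pseudocount 5 CHIT1 gave 2.83 in MOLM-14 and 0.22 in SKM-1, and after quantile normalization 0.25 in SKM-1. Of the 497, 11 still moved by over 1.5 times, 9 of them of CHIT1. With pseudocount 5 CHIT1 gave 0.13 in KG-1, -0.27 in MOLM-13, 0.53 in OCI-AML3, a panel mean of 0.69 (from 1.17) and a DMSO range of 0.68. Its panel mean was 0.41 without MOLM-14, its KG-1 difference 0.26 after quantile normalization and 0.20 without the shallow libraries, and its OCI-AML3 difference 1.73 without them. The DMSO difference of LYZ between MOLM-14 and OCI-AML3, not called, was -0.19 after quantile normalization and -0.25 after scaling to the total. The panel mean of LYZ was 0.82 without OCI-AML3 and 1.23 without SKM-1; that of CHI3L1 was 1.38 without MOLM-14, 1.01 without OCI-AML3 and 2.10 without SKM-1.

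Of list counts, chitinase family genes called higher went from 0 to 2 with library weights, without MOLM-14 or without the shallow libraries, and to 1 with a minimum of 50, pseudocount 5 or the replicate block; those lower went from 1 to 0 without KG-1, OCI-AML3 or SKM-1. The lower call among cathepsins and lysosome proteins (CTSC) went to 0 with library weights, no filter, no trend, quantile normalization, and without MOLM-13, SKM-1 or the shallow libraries. Transcription factors called lower became 1 with library weights, the replicate block, and without OCI-AML3 or the shallow libraries, and 2 without KG-1. Lymphoid markers called higher became 1 with a minimum of 50, 2 with quantile normalization or without KG-1, and 0 without SKM-1. Erythroid and megakaryocyte markers became 1 with a minimum of 50 and 0 without SKM-1. Glycosidases became 6 without MOLM-13 or MOLM-14 and 5 without SKM-1, and macrophage genes 4 without SKM-1. Over all genes, calls on the panel mean went from 2666 higher and 1667 lower to 4138 and 2320 without the shallow libraries and 1414 and 901 without SKM-1.

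Leaving out 1 library at a time, chitinase family genes called higher ranged from 0 to 2 (above 0 in 6 of the 30 runs), cathepsins lower from 0 to 1 (0 in 14 runs, from all 5 lines), transcription factors lower from 0 to 1 (1 without the third KG-1 DMSO replicate) and lymphoid markers higher from 2 to 4 (2 without the second SKM-1 decitabine replicate). The CHI3L1 difference between MOLM-13 and MOLM-14 in DMSO ranged from -0.63 to -0.47.

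Replicate numbers are no stated pairing: same-numbered libraries correlated from -0.02 to 0.15, above 0.1 in 6 of 15 pairs, and 12 of 15 decitabine libraries matched best with their own number. With the replicate block the DMSO range of LYZ stayed 4.15 (limma, adjusted p = 5.97e-20) and that of CHI3L1 6.34 (1.22e-18), and the log2 differences did not move. CHIT1 in most libraries and CHI3L1 in the shallow KG-1 DMSO library rest on few reads; the part of depth was not tested.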

Other observations

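Of the 144 genes with all decitabine libraries above all DMSO libraries in the 4 lines other than SKM-1, 111 also stood above in SKM-1, 23 overlapped and 10 stood below. The 10 genes were CHI3L1, CXCR3, FAT1, LOXL4, LYZ, MGST1, PRTN3, ROGDI, TBC1D8 and TSHZ3. They were named after their values were seen, and the list includes the genes that prompted it, so it is a description only. The SKM-1 difference was -1.92 for PRTN3, the granule protease gene, -0.69 for MGST1, a microsomal glutathione transferase gene, and -0.58 for CXCR3, a chemokine receptor gene. LOXL4, a lysyl oxidase family gene, had log2 differences of 4.31 in KG-1, 2.71 in MOLM-13, 4.58 in MOLM-14 and 1.74 in OCI-AML3, and -0.30 in SKM-1.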
